A study of Mus musculus with 30 samples.

Results

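In embryoid bodies (EB, clumps of embryonic stem (ES) cells that have left the pluripotent culture and started to form other cell types), 10979 of 24727 regions enriched for 5-formylcytosine (5fC) lay on a 5fC region of Tdg -/- ES cells but on none of Tdg fl/fl ES cells. A region entered this set where it shared at least 1 bp with the Tdg -/- list and no base with the fl/fl ES list, on chromosomes 1 to 19 and X. The set made up 44.4% of the EB 5fC list (95% Wilson interval 43.8 to 45.0), and 74.3% of the 14781 EB regions without fl/fl ES 5fC. With the ES 5fC lists cut to the 24727 regions of the EB list, it was 21.5% of the EB list. The members were chosen by the 5fC lists of the 3 groups, that is by which regions were called there, so every 5fC value of the members is a description and supports nothing further. The 5hmC and p300 lists took no part in the choice.

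5fC arises when TET enzymes oxidise 5-methylcytosine, first to 5-hydroxymethylcytosine (5hmC) and then to 5fC. Thymine DNA glycosylase, the product of Tdg, removes 5fC, after which base excision repair restores an unmodified cytosine, so 5fC can mark DNA on which demethylation is under way. The histone acetyltransferase p300 is a coactivator that binds enhancers, both active ones and ones held ready for later use in differentiation.

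The cells were mouse ES cells of strain C57BL/6-ICR with both Tdg alleles floxed (fl/fl) or deleted (-/-), and EB grown from the fl/fl cells, so no group carried an unmodified Tdg gene. ES medium held LIF, CHIR99021 and PD0325901, a description that the labels give with the EB samples. EB were kept in suspension without these 3 agents for 5 days. No EB without Tdg and no p300 list of EB entered the comparison.

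Each group and mark had 1 list of regions, deposited by the authors from 3 libraries for p300 and 2 for the other marks, so no value has a spread between replicates and no test was run. Intervals are 95% Wilson intervals and cover counting error only, and the sequencing depth is unknown. The lists of the 3 groups held 57016 (fl/fl ES), 120051 (Tdg -/- ES) and 24727 (EB) 5fC regions, 140943, 174655 and 101593 5hmC regions, and for p300 32160 (fl/fl ES) and 43345 (Tdg -/- ES). Longer lists catch more overlaps. Each region has a score, minus 10 times the log10 of its p-value, which ranks regions within its own list only. The lowest 5fC score was 60.92 in the fl/fl ES list and 50 in the other lists, so a weak region of fl/fl ES cells could be missing where an equally weak one of EB was listed. Tdg itself, the check of the deletion, read 22.07 FPKM before and 9.476 FPKM after deletion, which leaves 42.9%. The 6 measured ES markers of 7 were at 70.02 to 630.5 FPKM in fl/fl and 67.37 to 612.1 FPKM in Tdg -/- cells, and the 6 differentiation markers at or under 6.09 and 6.067 FPKM. EB had no expression table here, so their label could not be checked this way.

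The members were regions of middling strength in both lists that chose them. Their EB 5fC scores ran from 50.01 to 659.8 with a median of 73.54, against a median of 77.63 for EB regions in all 3 5fC lists and 61.14 for those in EB alone. Their median width was 721 bp, between 597 bp for EB alone and 773 bp for all 3 lists. The Tdg -/- region under a member had a median score of 166.4, at percentile 63.3 of its list, where the Tdg -/- region under an EB region of all 3 lists had 433.6, at percentile 89.9.

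Few memberships hung on a grazing overlap. Tdg -/- 5fC covered a median of 97.5% of a member, 4742 members (43.2%) lay wholly inside it, and only 83 had less than 10% covered. The centre of a member and that of its Tdg -/- region lay a median of 97.5 bp apart, and 10708 members had a single Tdg -/- partner. On the other side of the rule, fl/fl ES 5fC was often not far away. The nearest fl/fl ES 5fC region stood a median of 5190 bp off, with 1909 members (17.4%) closer than 1 kb and 548 (4.99%) more than 100 kb away. At the limits of the rule, chr14:122662219-122663034 (EB score 109.6) and chr17:88226009-88226703 (59.87) shared 1 bp with Tdg -/- 5fC, and chr5:120281735-120282219 (51.86) touched a fl/fl ES region without sharing a base. Just outside, chr6:6831417-6832159 (60.9) touched a Tdg -/- region without overlap, and chr9:57853388-57853871 (73.67) was left out for 1 bp of fl/fl ES 5fC. Coordinates are in mm9 as deposited.

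5hmC was present at 96.8% of members in at least 1 of the 3 groups, near the 94.3% of all EB 5fC regions. Tdg -/- ES 5hmC lay at 9307 of them (84.8%, 84.1 to 85.4), beside 82.8% of all EB 5fC regions. EB 5hmC lay at 8614 (78.5%, 77.7 to 79.2), beside 77% of all. Fl/fl ES 5hmC lay at 7500 (68.3%, 67.4 to 69.2), beside 72% of all. These shares were near those of the whole EB list, and the members stood between the other classes. EB regions in all 3 5fC lists had 98.2%, 82.6% and 95.4% in the same order, and EB regions without any ES 5fC had 37.6%, 59.1% and 22.4%. For EB 5hmC the place of the members below the all-3 class was not stable. They lay above it on 4 of 20 chromosomes, and at 81% against 79.97% when fl/fl ES 5fC within 1 kb counted as overlap. The all-3 class holds fl/fl ES 5fC by definition, and both that class and the members hold Tdg -/- 5fC, so these shares are not free of the lists that defined the classes. The order of Tdg -/- ES and EB 5hmC within the members depended on list length. With each 5hmC list reduced to its 101593 highest-scoring regions, EB 5hmC lay at 78.5%, Tdg -/- ES 5hmC at 68.7% and fl/fl ES 5hmC at 57.2% of members. Fl/fl ES 5hmC was thus the lowest at either length of the 5hmC lists, but not when the ES 5fC lists were cut to 24727 regions. Of the 5321 members then left, fl/fl ES 5hmC lay at 91.4%, Tdg -/- ES 5hmC at 98.5% and EB 5hmC at 79.5%. EB 5hmC was the lowest there, and both ES shares stood well above the 72% and 82.8% of all EB 5fC regions.

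p300 lay at more members than at EB regions with 5fC in all 3 lists, and at fewer than at EB regions alone in their 5fC. The fl/fl ES p300 list reached 2523 members (23.0%, 22.2 to 23.8), beside 20.7% of all EB 5fC regions, and the Tdg -/- list reached 2705 (24.6%, 23.8 to 25.5), beside 23.5% of all. In the all-3 class the shares were 14.5% (13.9 to 15.3) and 18.3% (17.5 to 19.03). In the EB-alone class they were 30.4% (29.0 to 31.9) and 34.1% (32.7 to 35.7). The members lay above the all-3 class in fl/fl p300 on 20 of 20 chromosomes, by 1.75 to 13.2 percentage points, and in Tdg -/- p300 on 19 of 20. They lay below the EB-alone class on 19 of 20 and on 20 of 20. Chromosomes are not replicates, and both facts describe these lists.

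The level of the p300 shares depended on the score cut, while the order of the 3 classes did not. With only the higher-scoring part of each list, p300 lay at 10.5% of 5750 members in fl/fl and 10.97% in Tdg -/- ES cells, against 5.40% and 6.12% of the all-3 class and 19.5% and 20.6% of the EB-alone class. Which genotype had more p300 at the members was not stable: with both p300 lists at 32160 regions, the Tdg -/- share fell to 18.1%, below the 23.0% of fl/fl.

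**Figure D1:**
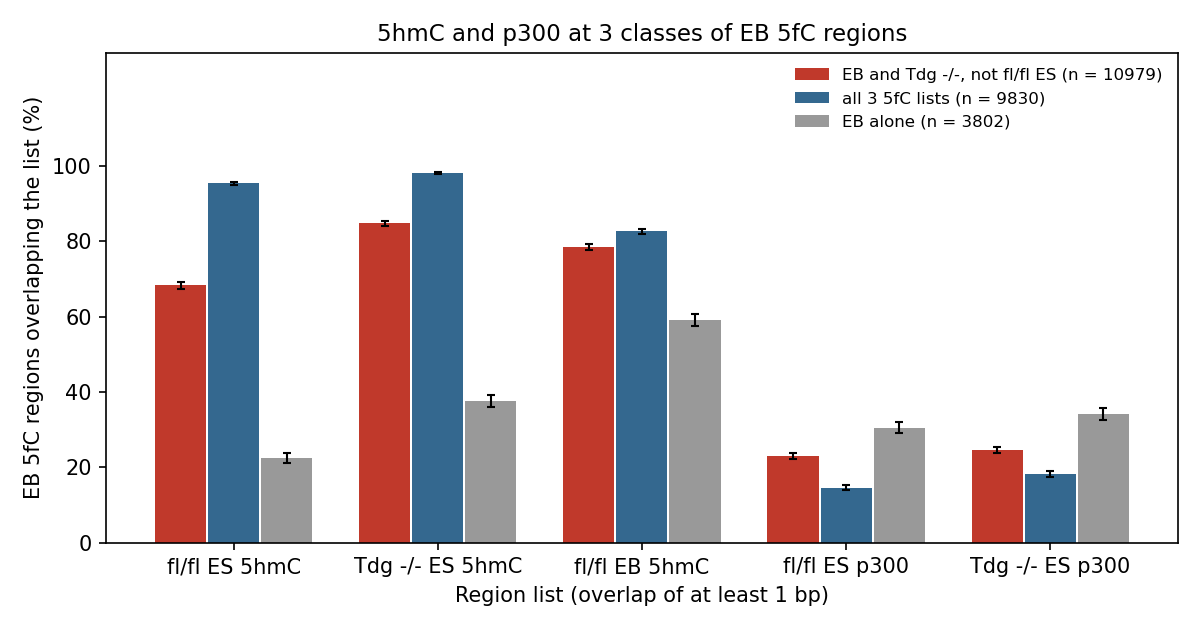
Share of EB 5fC regions (%) that overlap each 5hmC or p300 list by at least 1 bp, for regions shared with Tdg -/- only, in all 3 5fC lists and in EB alone; error bars are 95% Wilson intervals (counting error only). For 5hmC the members stand between the all-3 class and the EB-alone class, and for p300 they stand between them in the reverse order.

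Beneath these averages the members split by the groups in which they carried 5hmC. In 5747 (52.4%) 5hmC was listed in all 3 groups, against 56.5% of all EB 5fC regions. The 1600 members with 5hmC in Tdg -/- ES cells and EB but not in fl/fl ES cells followed the same pattern as their 5fC and made up 14.6%, against 9.504% of all EB regions. EB regions without any ES 5fC had this 5hmC pattern at 12.65%, and the all-3 class, which has fl/fl ES 5fC by definition, at 2.61%. Among members it reached 25.4% on chromosome 11 and 32.2% on chromosome 6 up to 40 Mb, against 12.3% on the 17 autosomes other than 6 and 11. A further 1471 (13.4%) had 5hmC in both ES lists and not in EB and 1041 (9.48%) in EB alone, about the shares of all EB regions (13.4% and 9.45%). In Tdg -/- ES cells alone it was found at 489 (4.45%, against 3.42% of all). The remaining patterns were rare: 349 members (3.18%, against 5.66% of all) had no 5hmC, 226 had it in fl/fl ES cells and EB, and 56 in fl/fl ES cells alone. Of the 1600, 521 (32.6%) had a fl/fl ES 5hmC region within 1 kb although none overlapped.

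The p300 share of members varied with their 5hmC pattern, as it did over all EB 5fC regions. A p300 region of either genotype lay at 26.8% of the members with 5hmC in all 3 groups, 33.4% with 5hmC in Tdg -/- ES cells and EB, 31.6% with 5hmC in both ES lists, 39.3% with it in Tdg -/- ES cells alone, 45.6% with it in fl/fl ES cells and EB, 49.5% with it in EB alone and 51.6% with none. Over all EB 5fC regions the same shares were 24.4%, 30.5%, 28.5%, 32.9%, 44.6%, 52.3% and 44.6%, so the lower p300 share where 5hmC was in all 3 groups is not particular to the members. For single lists, fl/fl p300 lay at 19.3% of members with fl/fl ES 5hmC and 30.9% of those without it, and at 18.2% and 34.0% of EB-alone regions. Tdg -/- p300 lay at 21.9% of members with Tdg -/- 5hmC and 39.95% of those without it. EB 5hmC went with a smaller difference, with fl/fl p300 at 22.2% of members with it and 25.7% without. 5hmC or p300 of at least 1 list lay at 98.5% of members, near the 96.9% of all EB 5fC regions, which left 169 members with neither.

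**Figure D2:**
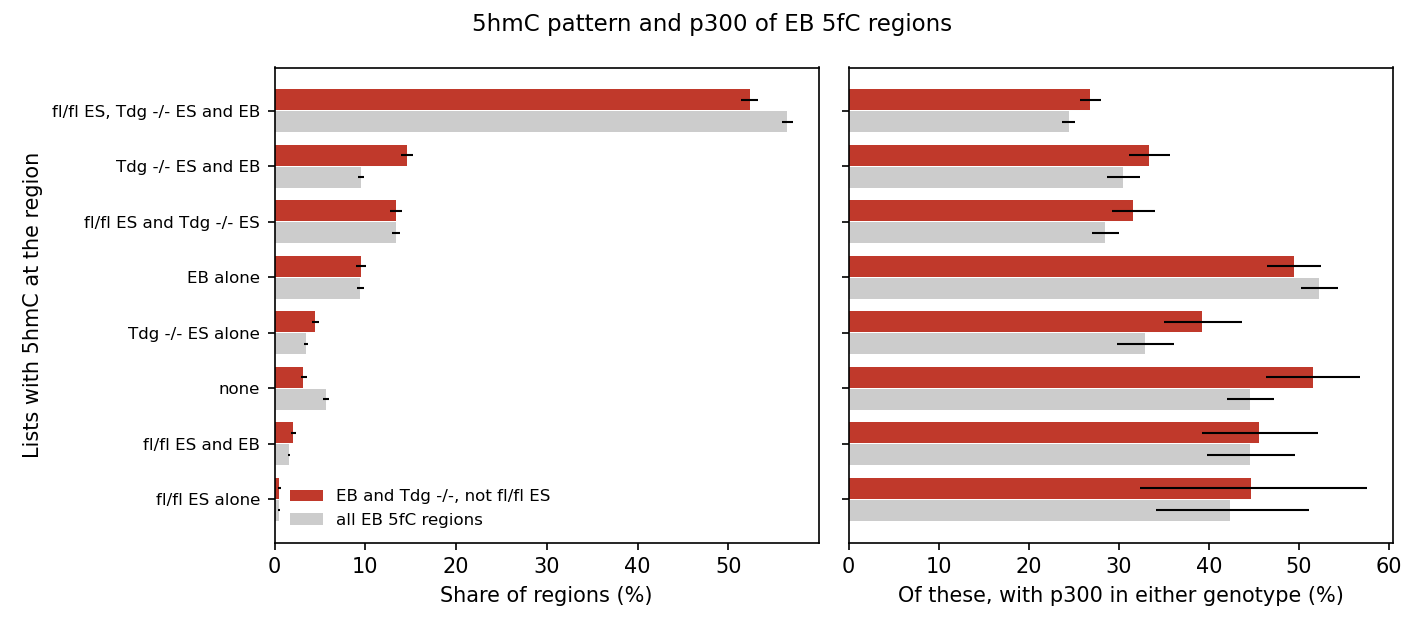
Left, share of regions (%) with each combination of 5hmC lists, for the members (red) and all EB 5fC regions (grey); right, share of each combination (%) with a p300 region in either genotype; bars carry 95% Wilson intervals. Among members the p300 share is 26.8% where 5hmC is in all 3 groups and 51.6% where it is in none, and among all EB 5fC regions 24.4% and 44.6%.

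p300 at the members was often listed in 1 genotype only. Both genotypes had it at 1672 members (15.2%), Tdg -/- alone at 1033 (9.41%), fl/fl alone at 851 (7.75%) and neither at 7423 (67.6%). Among all EB 5fC regions the same 4 shares were 14.2%, 9.32%, 6.51% and 69.97%. Of the members with p300 in fl/fl alone, 161 (18.9%) had a Tdg -/- p300 region within 1 kb, and of those with it in Tdg -/- alone, 132 (12.8%) had a fl/fl one. Fl/fl ES 5hmC was rarest where both genotypes had p300, at 55.7%, and commonest where neither had it, at 72.3%. Over all EB 5fC regions these shares were 52.8% and 76.4%, so the pattern is not particular to the members. Median EB 5fC scores of members were 71.46 without p300 and 84.38 with fl/fl p300 alone, against 70.99 and 82.28 over all EB 5fC regions.

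Both 5hmC and p300 were centred on the members. Fl/fl ES p300 covered 20.3% of member centres, 5.86% of points 1 kb away and 3.95% of points 5 kb away. Tdg -/- p300 covered 22.3%, 7.21% and 4.99%. At 5 kb the fl/fl p300 coverage of the all-3 class (3.998%) and of EB alone (4.05%) was about that of the members, so for this list the classes differed near the 5fC and came together farther out. At 1 kb the members still had more fl/fl p300 than the all-3 class (3.66%) and less than EB alone (8.25%). EB 5hmC covered 78.3% of member centres and 17.5% of points 5 kb away. For fl/fl ES 5hmC the values were 62.7% and 22.2%, and for Tdg -/- ES 5hmC 80.3% and 31.4%.

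**Figure D3:**
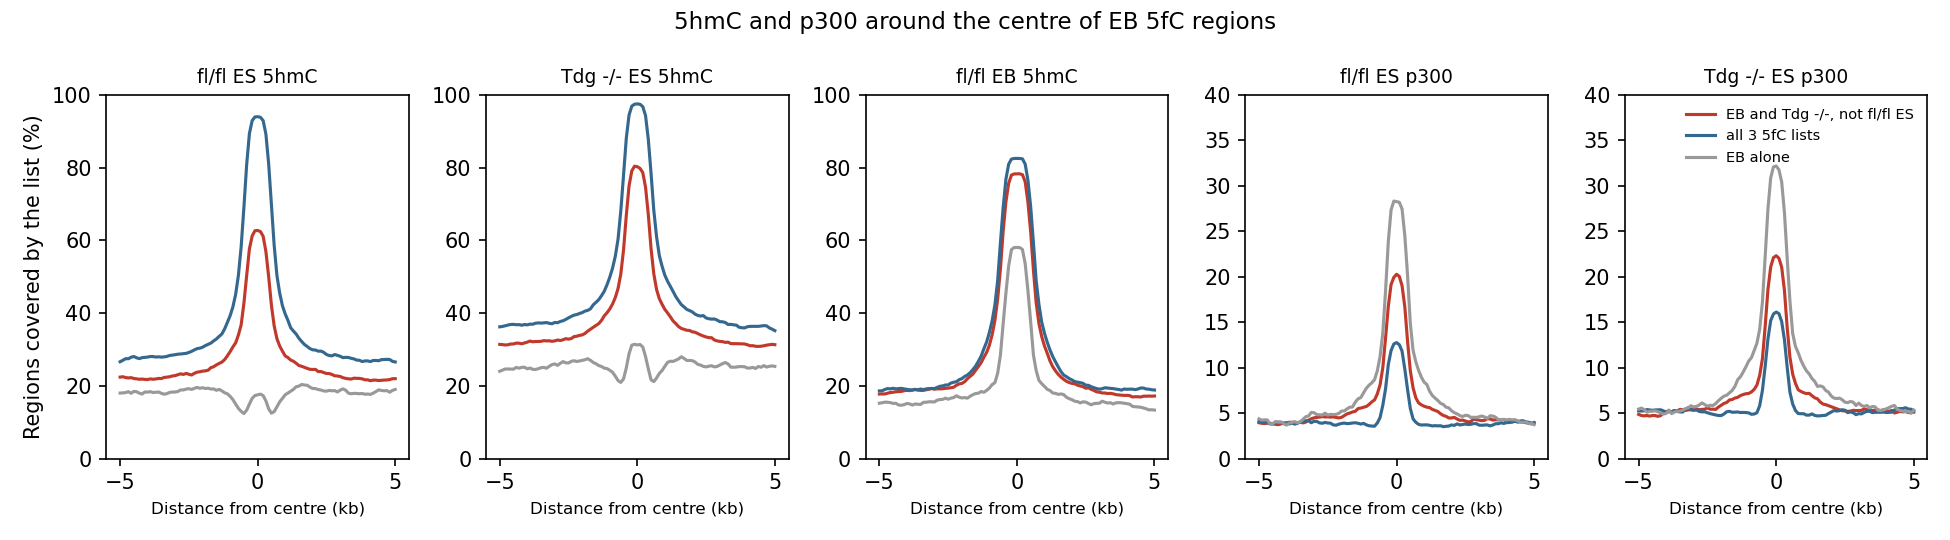
Share of EB 5fC regions (%) covered by each list at points from 5 kb before to 5 kb after the region centre, by class; the vertical axis reaches 100% for 5hmC and 40% for p300. All lists peak at the centre of the members (red), and the p300 curves of the 3 classes meet at 5 kb.

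Wider and stronger members had more p300. Across 4 width bands cut at 585, 721 and 888 bp, fl/fl p300 lay at 17.3%, 20.2%, 24.8% and 29.7% of members. In every band it stayed above the all-3 class (10.99%, 11.6%, 14.3% and 18.8%) and below EB alone (23.5%, 30.2%, 40.4% and 50.5%), although all-3 regions were wider than members as a whole. Across 4 bands of EB 5fC score, cut at 58.54, 72.48 and 99.16, fl/fl p300 rose from 17.8% to 29.7% of members and EB 5hmC from 74.0% to 83.4%, while fl/fl ES 5hmC stayed between 67.4% and 69.9%. These rises were not particular to the members. From the lowest to the highest band, fl/fl p300 rose from 10.5% to 17.9% of the all-3 class and from 23.2% to 53.1% of EB alone. EB 5hmC rose from 77.4% to 87.8% and from 51.3% to 79.0%. The score of the Tdg -/- 5fC region underneath behaved otherwise. From its lowest to its highest band, fl/fl ES 5hmC went from 39.9% to 86.1% of members and Tdg -/- 5hmC from 59.5% to 97.5%, while fl/fl p300 stayed between 22.2% and 23.9% and EB 5hmC between 73.1% and 81.6%.

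Within each list, members sat on EB 5hmC regions of high rank and on p300 regions of middle rank. The median percentile of the region underneath was 81.7 in the EB 5hmC list, 72.3 in the Tdg -/- and 63.1 in the fl/fl ES 5hmC list. The all-3 class ranked higher in each, at 87.4, 90.1 and 87.2, and EB alone lower, at 61.1, 44.5 and 37.5. It was 47.3 in the fl/fl and 46.9 in the Tdg -/- p300 list. p300 regions under EB-alone 5fC ranked higher, at 69.1 and 65.7, and those under the all-3 class lower, at 38.4 and 39.0.

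The marks of the members changed with distance from fl/fl ES 5fC. EB 5hmC lay at 66.4% of the 1909 members closer than 1 kb to a fl/fl ES 5fC region, 75.8% of 3481 at 1 to 5 kb, 81.2% of 3426 at 5 to 20 kb and 89.0% of 2163 farther off. Fl/fl ES 5hmC went the other way, from 78.0% to 62.6%, as did fl/fl p300, from 28.9% to 16.8%, and Tdg -/- p300, from 31.9% to 18.6%. EB-alone regions had the same direction for p300, from 39.9% to 22.0% in fl/fl, and a smaller rise of EB 5hmC, from 56.5% to 66.3%. Fl/fl ES 5hmC fell at EB-alone regions as well, from 35.5% to 17.1%. Leaving out the members within 1 kb, fl/fl p300 lay at 21.7% of the remaining 9070.

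**Figure D4:**
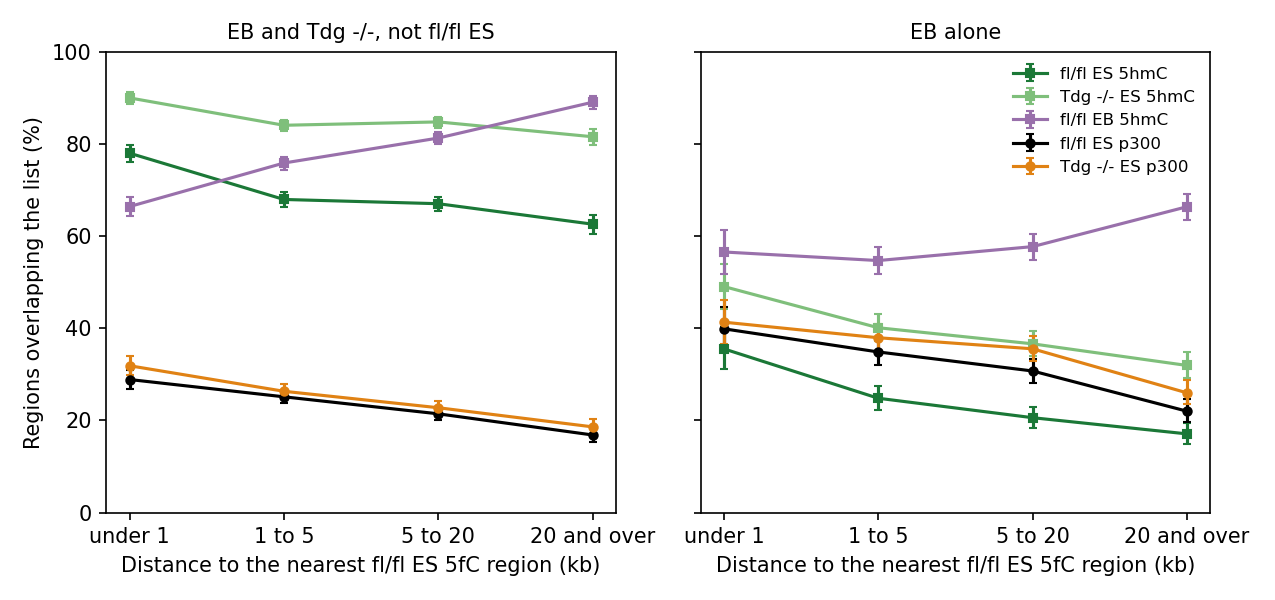
Share of regions (%) overlapping each list against distance to the nearest fl/fl ES 5fC region (kb, 4 bands, lines join bands), for members (left) and EB-alone regions (right), with 95% Wilson intervals. Among members EB 5hmC rises with distance from 66.4% to 89.0% while each of the other lists is lower in the farthest band than in the nearest.

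Seen from the Tdg -/- side, the members corresponded to a small part of the 5fC listed in Tdg -/- and not in fl/fl ES cells. Of 73702 Tdg -/- 5fC regions without fl/fl ES 5fC, 10345 (14%) overlapped EB 5fC, beside 22.1% of the 46349 with fl/fl ES 5fC. The EB 5fC list held only 24727 regions, 14781 of them without fl/fl ES 5fC, and this length limits both shares. Of the 10345, 10232 lay under a member. The EB and the Tdg -/- regions counted here were each set against 1 and the same fl/fl ES list. Among the 73702 the share with EB 5fC rose with the Tdg -/- score, from 6.00% in the lowest of 4 bands to 10.3%, 19.6% and 40.3%. Among the 46349 it rose likewise, from 3.76% to 6.51%, 12.5% and 35.7%, and was the lower of the pair in each band. Within the 73702, fl/fl p300 lay at 23.5% of those with EB 5fC and 9.30% of those without, beside 11.3% of all. Tdg -/- p300 lay at 25.3% and 12.5%, beside 14.3% of all, and EB 5hmC at 79.7% and 49.6%, beside 53.8%. ES 5hmC did not separate them: fl/fl ES 5hmC lay at 68.1% and 67.7%, beside 67.8%, and Tdg -/- 5hmC at 84.4% and 84.1%, beside 84.1%. Regions with EB 5fC were stronger and wider, with a median score of 153.8 against 86.09 and a median width of 848 against 693 bp. Within the 4 score bands the fl/fl p300 difference remained, at 23.4% against 7.43%, 22.1% against 8.81%, 22.8% against 11.3% and 25.3% against 15.4%. It was 18.1% against 6.81% with the centre of the region inside p300, and 22.8% against 9.08% without chromosome 11. Within the same bands fl/fl ES 5hmC turned lower in those with EB 5fC, at 40.8% against 55.4% in the lowest band and 88.5% against 92.2% in the highest. The p300 and EB 5hmC differences were not particular to regions without fl/fl ES 5fC. Among the 46349 Tdg -/- regions with fl/fl ES 5fC, fl/fl p300 lay at 17.2% with EB 5fC and 8.54% without. Tdg -/- p300 lay at 21.7% and 13.7% of them, and EB 5hmC at 81.7% and 54.4%.

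Members were spread over all chromosomes, with an excess on chromosome 11 and the start of chromosome 6. On 17 autosomes they made up 38.6% to 45.5% of EB 5fC regions. On chromosome 11 they made up 1444 of 2406 (60.02%, 58.0 to 62.0), on chromosome 6 up to 40 Mb 255 of 390 (65.4%, 60.5 to 69.9), and on chromosome X 57 of 106 (53.8%). The rest of chromosome 6 gave 45.7%. In windows of 10 Mb with at least 50 EB 5fC regions, the share lay between 52.6% and 68.9% in 10 windows of chromosome 11 and between 30.9% and 53.8% in 146 windows outside chromosomes 6 and 11. The highest, 90 of 119 (75.6%), stood at 20 to 30 Mb on chromosome 6.

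In the same places the fl/fl ES lists were short against both other groups. On chromosome 11 the ratio of 5fC region numbers to those of fl/fl ES cells was 4.03 for Tdg -/- ES cells and 0.932 for EB, where the 17 autosomes ran from 1.86 to 2.13 and from 0.346 to 0.457. For chromosome 6 up to 40 Mb the ratios were 4.48 and 1.19. Chromosome X, with 104 fl/fl ES 5fC regions, had 5.27 and 1.02. The same held for 5hmC, with 2.21 for Tdg -/- and 1.19 for EB against fl/fl ES cells on chromosome 11, where the 17 autosomes ran from 1.15 to 1.20 and from 0.639 to 0.727. On chromosome X the 5hmC ratios were 1.60 and 1.94. The part of the short fl/fl ES lists in the excess of members was not tested, nor was the copy number of these chromosomes in the cells behind the lists, so membership there may not mean what it means elsewhere. The p300 lists differed in the other direction on chromosome 11, with 0.787 times as many regions in Tdg -/- as in fl/fl ES cells against 1.34 to 1.48 on the 17 autosomes.

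The members on chromosome 11 also stood apart in their marks, though not as the only class. Fl/fl ES 5hmC lay at 56.2% of these members, Tdg -/- 5hmC at 91.2%, EB 5hmC at 70.9%, fl/fl p300 at 26.7% and Tdg -/- p300 at 16.6%. Over the 17 autosomes these shares were 70.9%, 83.8%, 79.3%, 22.2% and 25.8%, and Tdg -/- p300 was never under 21.0% on any of them. On chromosome 6 up to 40 Mb fl/fl ES 5hmC was as low, at 52.9%, with Tdg -/- 5hmC at 90.6%, while p300 lay at 29.0% and 25.9%. Chromosome X had 5hmC at 45.6% (fl/fl ES), 68.4% (Tdg -/-) and 91.2% (EB) of its 57 members, and p300 at 1.75% and 3.51%. Without chromosomes 11 and X and the first 40 Mb of chromosome 6, 9223 members remained, 42.3% of the EB list there, with fl/fl p300 at 22.4%, Tdg -/- p300 at 26.0%, and 5hmC at 70.8%, 83.7% and 79.4% (fl/fl ES, Tdg -/- ES, EB). The all-3 and EB-alone classes had fl/fl p300 at 14.3% and 30.5% in the same part of the genome. On chromosome 11 these classes shifted as well. Tdg -/- p300 lay at 9.23% of the all-3 class there, against 18.9% without that chromosome, and at 23.9% against 35.0% of the EB-alone class. Fl/fl ES 5hmC lay at 7.64% against 23.7% of EB-alone regions, and at 94.6% against 95.5% of the all-3 class. Low Tdg -/- p300 on chromosome 11 is thus not particular to the members.

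**Figure D5:**
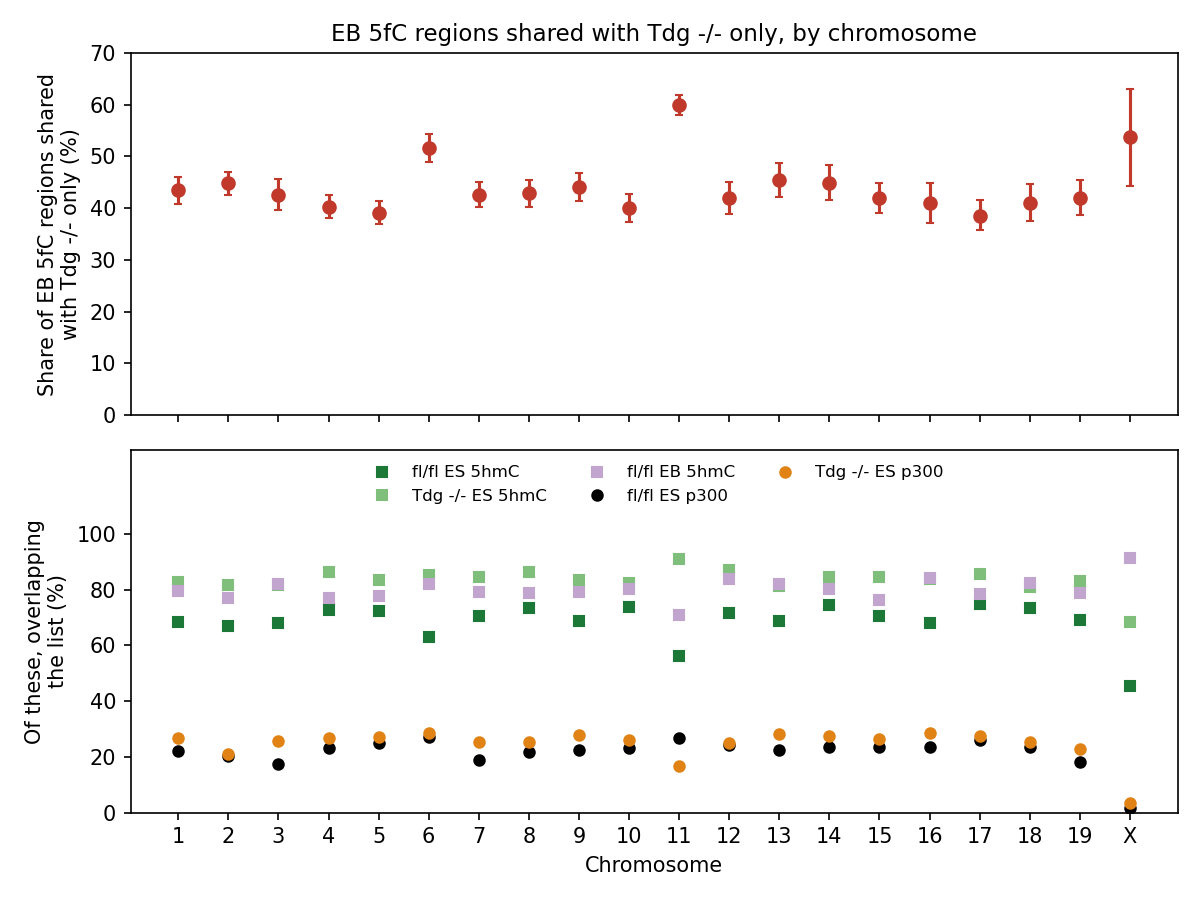
Top, share of EB 5fC regions (%) that are members on each chromosome, with 95% Wilson intervals; bottom, share of these members (%) overlapping each 5hmC or p300 list. Chromosome 11 has the highest share of members (60.02%), the lowest fl/fl ES 5hmC of the autosomes and fewer Tdg -/- than fl/fl p300 overlaps.

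Some members stood close together, about as often as regions of the all-3 class. The nearest other member stood a median of 22554 bp away, and 2491 (22.7%) had one within 5 kb. The all-3 class had 20011 bp and 21.7%, and all EB 5fC regions 9027 bp and 37.3%, each measured to its own kind. The whole EB list holds the members, so a member's nearest EB region is never farther than its nearest member. The comparison with the whole list therefore decides nothing. With a spacing of at most 5 kb the members formed 1088 runs of at least 2, 195 of at least 3 and 60 of at least 4. The longest run held 23 members over 57467 bp at chr11:96138365-96195832, with EB scores from 55.18 to 210.5. In that run 5hmC lay at 18 members in Tdg -/- ES cells, 7 in EB and 6 in fl/fl ES cells, and p300 at 3 in fl/fl and 1 in Tdg -/-. A second run of 6 followed at chr11:96201897-96209991. Both runs lie on chromosome 11, where the fl/fl ES 5fC and 5hmC lists were short. Runs of 10 stood at chr15:102787400-102809756, with 5hmC at 4, 3 and 3 members (fl/fl ES, Tdg -/- ES, EB), and at chr5:120876584-120890621, with 4, 5 and 7. A run of 7 on chromosome X, chrX:166418673-166436067, had EB 5hmC at all 7, Tdg -/- 5hmC at 6, and no fl/fl ES 5hmC or p300. Chromosome X also had short fl/fl ES 5fC and 5hmC lists.

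The strongest members show how varied the set was. Scores come from different lists and are not to be compared across groups. The top EB score, 659.8, belonged to chr2:98504898-98505520, which had a Tdg -/- 5fC score of 385.9, no 5hmC and no p300 in any list, and a fl/fl ES 5fC region 564 bp away. No list of artefact-prone loci was applied here. The next, chr6:6827904-6831407 (619.7), was also the widest member, at 3503 bp. It had Tdg -/- 5fC at 1508, 5hmC at 264.2 (fl/fl ES), 1123 (Tdg -/- ES) and 854.5 (EB), and p300 in fl/fl alone, at 72.52. It lies in the area of chromosome 6 where the fl/fl ES lists were short. The third, chr1:121085765-121086776 (517), stood on a strong EB 5hmC region (1246) and weaker ES ones (130.8 in fl/fl, 191.3 in Tdg -/-), with p300 in Tdg -/- alone (84.99). The fourth, chr11:96205164-96206327 (486.2), lay in the run of 6 on that chromosome and had 5hmC at 273.8 in Tdg -/- ES cells and 904.5 in EB, none in fl/fl ES cells, and no p300. The fl/fl ES 5fC and 5hmC lists were short on chromosome 11 as well.

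The other 4 of the 8 strongest differed again. At chr19:5050448-5051774 (482.6) and chr19:10431167-10432156 (406.9), 5hmC was in all 3 groups and p300 in none. At chr1:183853487-183854009 (481.2), Tdg -/- 5fC was barely above the list minimum, at 51.87, while EB 5hmC scored 809.9, Tdg -/- 5hmC was missing and p300 was in both genotypes (63.23 in fl/fl, 75.05 in Tdg -/-). At chr6:17230917-17231844 (427.4), 5hmC scored 55.28 in fl/fl ES, 982.6 in Tdg -/- ES and 674.4 in EB, with p300 in fl/fl alone (125.1), and the nearest fl/fl ES 5fC was 259530 bp off.

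Further members were taken from the 3 strongest of their 5hmC or p300 pattern, not all of which are described. EB 5hmC alone was found at chr4:88952570-88953334 (EB 5fC 402.2, Tdg -/- 5fC 114.5, EB 5hmC 444.9) and at chr3:83852378-83853221 (349, 266.4 and 531.9), neither with p300. 5hmC of both ES lists without EB 5hmC was found at chr11:85701636-85702766 (376.6), with 257.9 in fl/fl and 1699 in Tdg -/- ES cells, and at chr5:140033045-140034485 (363.3), with 293 and 671.4 and p300 in Tdg -/- alone (77.97). The former lies on chromosome 11, where the fl/fl ES 5fC and 5hmC lists were short. Both p300 lists had strong regions at chr10:69444251-69445174 (368.7), with 496.5 in fl/fl and 481.7 in Tdg -/-, over 5hmC in all 3 groups (122.2, 104.8 and 1028). At chr8:120383581-120384429 (364.5), p300 in both genotypes (216.2 and 140.2) stood over 5hmC in Tdg -/- ES cells (76.1) and EB (494.6) and none in fl/fl ES cells. At chr8:67357808-67358786 (238.9) p300 in both (218.2 and 289.7) stood with no 5hmC in any list, 923 bp from fl/fl ES 5fC.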

How the data were processed

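Each deposited list gives 1 score per region, which the headers of the fl/fl and Tdg -/- ES 5fC and 5hmC files define as minus 10 times log10 of a p-value. The same scale was assumed for the other lists, whose files have no header. The submitters' processing notes name mm9, Bowtie and MACS 1.4. Those of the EB libraries add Trimmomatic, Picard and another Bowtie version, so EB and ES reads may have been handled differently. The call threshold, and whether starts count from 0 or 1, are not given in the sources used here. FPKM values, 1 per gene and genotype, were deposited by the authors, whose notes name TopHat 1.4.1 and Cufflinks 1.3.0.

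Overlaps, distances and Wilson intervals were computed with Python 3.11.15, numpy 2.4.6, pandas 2.3.3 and scipy 1.17.1 and checked on simulated lists, and figures were drawn with matplotlib 3.10.9. Bands of width and EB score split the EB list, and bands of Tdg -/- score its 5fC list, into 4 equal parts. Runs join members at most 5 kb apart. Regions named are the 8 members with the highest EB score, the strongest of each 5hmC or p300 pattern (some of up to 3), regions at the limits of the rule, and the longest runs, which were chosen after their values were seen. Members and lists were chosen with earlier results of these data known. Input, control enrichment and H3K4me1 libraries were not used here. No mm9 sequence or annotation was used, so regions carry no gene names. Alternatives were the centre as overlap rule, higher-scoring regions, 1 score minimum, a 1 kb exclusion, merging, leaving out chromosome 11 and 3 more added after seeing the data.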

Additional observations from a re-analysis of the deposited data

How the results depend on the processing

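The number of members was 11540 with the centre of the EB region inside the other lists and 7413 with 1 score minimum of 60.92 for the 5fC lists. It was 9070 without fl/fl ES 5fC within 1 kb, 9855 after merging regions within 1 kb and 9535 without chromosome 11. When each list kept its higher-scoring part, which holds fewer regions by construction, it was 5750, or 46.5% of 12364 EB regions. When the 5fC lists were cut to 24727 regions each, it was 5321. That setting shortened the ES lists and left the EB list whole. Members then made up 21.5% of the same 24727 EB regions, and EB-alone regions numbered 13505 instead of 3802. The share of members thus depended on the length of the ES 5fC lists. Shares that left their counting interval follow. In that order of settings, fl/fl ES 5hmC lay at 65.65% of members with the centre inside, 60.83% in the higher-scoring part, 70.07% with 1 minimum, 66.28% with the 1 kb exclusion, 70.15% without chromosome 11 and 91.37% with equal 5fC lists, and Tdg -/- ES 5hmC at 82.34%, 78.66%, 86.21%, 83.68%, 83.8% and 98.48%. EB 5hmC lay at 73.32% in the higher-scoring part, 80.67% with 1 minimum, 81% with the exclusion, 79.71% after merging, 79.6% without chromosome 11 and 79.46% with equal 5fC lists. Fl/fl p300 lay at 20.02% with the centre inside, 10.52%, 24.79%, 21.74%, 23.82% after merging and 20.84% with equal 5fC lists, and Tdg -/- p300 at 22.37%, 10.97%, 25.48%, 23.12%, 25.64%, 21.76%, and 25.86% without chromosome 11. With 5hmC and p300 lists of equal length, fl/fl ES 5hmC was 57.21%, Tdg -/- 5hmC 68.66% and Tdg -/- p300 18.08%. Without chromosomes 11 and X and the first 40 Mb of chromosome 6, fl/fl ES 5hmC was 70.78%, Tdg -/- 5hmC 83.7%, EB 5hmC 79.41% and Tdg -/- p300 26%. Equal lengths and this last setting were chosen after seeing the data. Beyond list length and construction, the cause of these moves was not tested. The p300 order of EB alone, members and all 3 lists held in each of these settings.

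No paired analysis was possible because each group has 1 pooled list, which carries no replicates. Depth is unknown, so a missing overlap shows only that no region was called there.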
